A study of Mus musculus with 120 samples.

Results

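The nuclear genes for subunits of the oxidative phosphorylation complexes were followed in biopsies of the immunological niche (IN), a subcutaneous polycaprolactone scaffold, in NOD and NOR mice. Members were taken by gene name from both count tables, as the Ndufa, Ndufb, Ndufc, Ndufs and Ndufv genes with a number, and the genes whose names begin with Uqcr, Cox4 to Cox8 or Atp5. Of the 98 names matched, 13 carried a pseudogene suffix and were left out, which left 85 members of 55487 genes shared by the tables. Complex I holds 38 of them, complex III 8, complex IV 21 and complex V, the ATP synthase, 18. Ndufa4 and its relative Ndufa4l2 carry complex I names and were counted with complex IV, where the Ndufa4 protein sits.

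Oxidative phosphorylation couples electron transport along the inner mitochondrial membrane to ATP synthesis. Complex I takes electrons from NADH, complex III passes them from ubiquinol to cytochrome c, complex IV hands them to oxygen, and complex V uses the resulting proton gradient. A few subunits of complexes I, III, IV and V are encoded in mitochondrial DNA and the rest in the nucleus, so the complexes are built from both genomes. Several complex IV subunits come as pairs of isoforms with different tissue ranges, and Cox6a2, Cox7a1 and Cox8b are the heart and skeletal muscle forms of Cox6a1, Cox7a2 and Cox8a, with Cox7a1 and Cox8b also prominent in brown fat. They were described apart from the other members.

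The 120 libraries came from bulk RNA of repeated scaffold biopsies. Female mice received their first scaffolds at 4 weeks of age, and each scaffold taken out was replaced by a fresh one, so that later biopsies can come from scaffolds placed later. NOR/LtJ mice, a strain related to NOD that stays free of diabetes, gave 23 samples of 5 mice aged 6, 10, 14, 18 or 22 weeks, all in sequencing batch 1. NOD/ShiLtJ nonprogressors gave 20 samples of 4 mice at the same ages in batch 1 and 13 samples of 7 other mice at 6 and 14 weeks in batch 2. A further 6 nonprogressor samples, labelled mouse 1 or 2, carry days after implantation in place of an age and entered no test. NOD/ShiLtJ progressors, which became diabetic, gave 58 samples of 10 mice at 6 weeks of age, at −7, −5, −3 and −1 weeks to onset and at onset. Mice 1 to 5 were sequenced in batch 1 (25 samples) and mice 6 to 10 in batch 2, together with the −7 samples of mice 1, 2, 3, 4, 6, 7, 9 and 10 (33 samples). In nonprogressors the batches hold different mice, as they do in progressors at every time but −7 weeks, and there batch and mice cannot be told apart. In progressors the later times are also older ages, and these cannot be told apart either. In bulk RNA, fewer cells of a type and less RNA per cell cannot be told apart.

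Total counts ran from 4722396 to 56185434 in batch 1 and from 29029239 to 43880986 in batch 2. Of these, the members took 0.0265% to 0.466% in batch 1, with a median of 0.298%, and 0.168% to 0.393% in batch 2, with a median of 0.302%. The lowest share was in the 18-week library of NOR mouse 5, in which 85.7% of 8616431 counts fell on CT010467.1. All libraries had counts of the fibroblast gene Col1a1 and the macrophage genes Cd68 and Lyz2. Levels are given as scaled CPM, counts scaled to library size (CPM) after the TMM scaling of edgeR. Changes are log2 fold changes ± SE from the quasi-likelihood test of edgeR, with p adjusted by Benjamini-Hochberg over all genes tested and a threshold of 0.05.

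The 250 bases before the start site are shown for 2 muscle isoforms and their counterparts, so that each can be read beside its expression. They are RefSeq sequences of GRCm38.p6 on the gene strand, 5′ to 3′. The windows are chr7:140900447-140900696 for Cox8b (minus strand), chr19:7217617-7217866 for Cox8a (minus strand), chr7:30183921-30184170 for Cox7a1 (plus strand) and chr9:79759854-79760103 for Cox7a2 (minus strand). Capitals in Cox8b mark an E-box, CAGCTG, that begins 19 bases before the start.
Cox8b: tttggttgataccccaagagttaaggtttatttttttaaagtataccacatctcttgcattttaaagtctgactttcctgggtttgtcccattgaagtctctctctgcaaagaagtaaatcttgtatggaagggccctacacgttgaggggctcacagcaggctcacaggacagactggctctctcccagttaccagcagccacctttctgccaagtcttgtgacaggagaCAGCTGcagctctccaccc
Cox8a: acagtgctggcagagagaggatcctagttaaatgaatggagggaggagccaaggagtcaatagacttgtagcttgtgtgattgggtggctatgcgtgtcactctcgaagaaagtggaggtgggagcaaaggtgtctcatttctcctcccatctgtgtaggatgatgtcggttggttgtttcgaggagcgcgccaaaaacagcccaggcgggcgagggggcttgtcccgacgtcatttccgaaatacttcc
Cox7a1: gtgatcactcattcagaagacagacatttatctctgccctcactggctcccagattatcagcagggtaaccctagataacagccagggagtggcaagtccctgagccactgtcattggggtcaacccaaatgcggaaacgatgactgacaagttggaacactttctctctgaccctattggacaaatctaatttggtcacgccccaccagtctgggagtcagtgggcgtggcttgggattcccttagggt
Cox7a2: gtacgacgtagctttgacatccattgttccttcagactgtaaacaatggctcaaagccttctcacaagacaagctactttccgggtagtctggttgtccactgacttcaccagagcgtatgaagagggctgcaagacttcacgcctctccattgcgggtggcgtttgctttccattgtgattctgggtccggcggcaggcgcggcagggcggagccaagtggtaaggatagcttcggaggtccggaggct
The Cox8b window held 1 CG dinucleotide and that of Cox7a1 held 4, against 11 for Cox8a and 14 for Cox7a2. Over the 65 members with a RefSeq promoter the median was 14 (range 1 to 35), against 6 (0 to 56) over 27025 promoters. Motifs were searched on both strands over 250 bases. The ETS motif CCGGAAG was in 10 of 65 member promoters and in 7.15% of all, and the NRF1 core GCGCATG was in 9 of 65 and in 3.35% of all. CAGCTG was in 6 of 65 and in 12.8% of all, and the ERR motif AAGGTCA was in 5 of 65 and in 4.01% of all. The MEF2 motif was in 0 of 65 and in 2.96% of all. The Cox6a1 window (chr5:115348959-115349208, minus strand) held 26 CG dinucleotides, an ETS motif and the NRF1 core on both strands, where the copies overlap. A match is a run of letters, not a bound site.

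Per kilobase of transcript, the highest member was Atp5b, the catalytic β subunit of ATP synthase (median 218 scaled CPM per kb over 120 samples). Cox4i1 (182), Cox8a (145), the catalytic α subunit Atp5a1 (135) and Cox6b1 (101) followed. By complex, the median member stood at 19.6 per kb in complex I, 39.4 in complex III, 28.8 in complex IV and 47.8 in complex V. These medians are over all members, with the muscle isoforms, the pseudogenes and the members of few or no counts. In complex IV the muscle isoforms, Cox6c2, Cox7b2 and Cox8c all lie below the median, which would be higher without them. In the core of complex I, the iron-sulfur subunits Ndufs1, Ndufs7 and Ndufs8 were at 23.1, 40.6 and 19.6. Ndufs3 was at 19.7, the NADH-binding Ndufv1 at 22.4 and Ndufv2 at 17.2. In complex III, the core proteins Uqcrc1 and Uqcrc2 were at 72.9 and 25.8 and the Rieske protein Uqcrfs1 at 25.0. The c subunit of ATP synthase has 3 genes of identical mature product, and Atp5g2 (77.5) and Atp5g3 (55.6) were well above Atp5g1 (8.06). Atp5b alone made up 14.8% of the summed member level and Atp5a1 11.3%.

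Some members were barely measured. Of the 85 members, 4 are processed pseudogenes by annotation (Ndufa11b, Ndufb4c, Ndufs6b and Cox6c2), Cox8c and a second gene identifier named Atp5o had 0 counts, and Cox7b2 had counts in 2 samples. Ndufb4c is a near copy of Ndufb4 and their median levels were alike (8.72 and 8.77 scaled CPM), so reads may be split between them. Of the names left out, Ndufs5-ps had 13598 counts beside 17324 for Ndufs5. Ndufa12-ps had 17872 beside 37816 for Ndufa12. Whether reads are split there was not tested in any comparison. In most comparisons 79 members passed the filter on low counts. The 6 that did not were Ndufa11b, Ndufs6b, Cox6c2, Cox7b2, Cox8c and the second Atp5o, and Ndufa11b passed in the strain comparison and in the progressors' batch comparison, where 80 were tested.

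The muscle isoforms were low in most libraries and high in a few. Cox6a2 (chr7:128205435-128206387) ran from 0.085 to 67.4 scaled CPM with a median of 1.35, while Cox6a1 ran from 1.84 to 91.3 with a median of 54.7. Cox7a1 (chr7:30184144-30186078) ran from 0 to 14.9 (median 1.45) and Cox7a2 from 5.13 to 39.7 (median 26.0). Cox8b (chr7:140898945-140900446) ran from 0 to 21.5 (median 0.773) and Cox8a from 9.09 to 136 (median 79.7). All 3 muscle isoforms were highest in the 14-week library of nonprogressor mouse 2 in batch 1, where Cox6a2 was at 67.4, Cox8b at 21.5 and Cox7a1 at 14.9. The 6-week library of progressor mouse 5 (41.5, 11.3 and 11.2 in the same order) and the 22-week library of NOR mouse 3 (37.9, 19.6 and 10.4) came next for Cox6a2. High libraries thus occurred in all 3 cohorts. Per kilobase, the median levels were 1.99 for Cox6a2 and 95.9 for Cox6a1, 3.69 for Cox7a1 and 39.4 for Cox7a2, and 2.15 for Cox8b and 145 for Cox8a.

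These levels moved with the skeletal muscle list of 15 genes, whose summed level ran from 2.95 to 37243 scaled CPM over the samples, with Acta1, the skeletal muscle actin, between 0.051 and 10096. With the biopsies of each mouse summed within a batch, the muscle isoforms and that list were compared over mice on a log2 scale, and 12 relations were tested in all. Over the 14 mice of batch 1, r was 0.92 for each of Cox6a2, Cox7a1 and Cox8b (rho 0.95 each, adjusted permutation p = 2.4e-05, n = 14), and without the 2 mice farthest from the median r was 0.86, 0.89 and 0.91. Over the 16 mice of batch 2, r was 0.93 for Cox6a2 (rho 0.99) and 0.95 for Cox8b (rho 0.99), each at adjusted permutation p = 2.4e-05. For Cox7a1 it was 0.66 (rho 0.70, adjusted permutation p = 0.00938). Without the 2 farthest mice r was 0.41 (adjusted permutation p = 0.285) and rho 0.57 (adjusted permutation p = 0.0715), so the call of that relation rests on them. Those are progressor mice 2 and 3 with 1 biopsy each in batch 2, where mice gave 1 to 6. The smallest raw p these permutations can give is 1e-05. Against the brown adipocyte list, r lay between −0.42 and 0.23 in the 6 relations. The defining brown fat genes Ucp1 and Cidea were near 0 at the median (0.047 and 0.063 scaled CPM), and their highest values were 19.2 and 19.0. Dio2, of the same list, was at 50.7 to 333 (median 133), while the highest median of the others was 2.55 (Cpt1b), so that the summed list is mostly Dio2 at these medians.

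**Figure D1:**
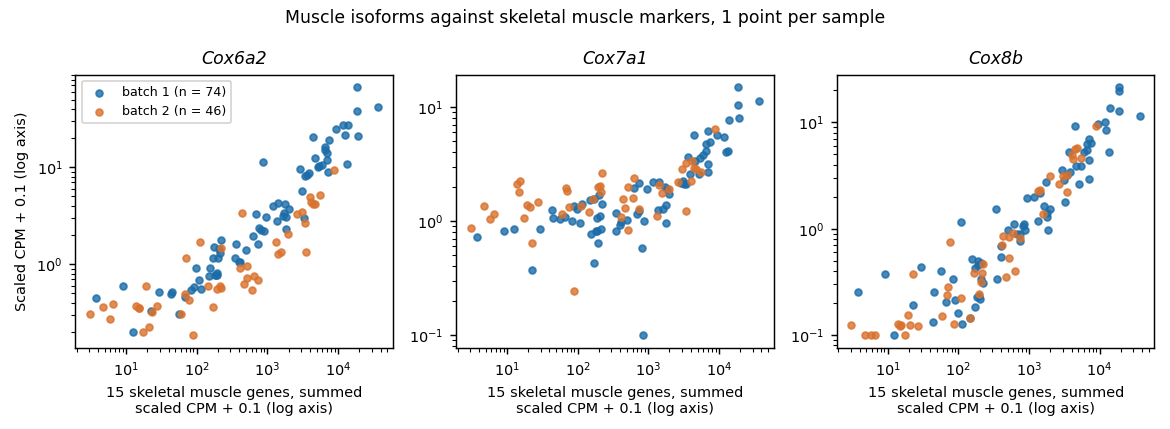
Level of Cox6a2, Cox7a1 and Cox8b (y axis, scaled CPM + 0.1, log axis) against the summed level of 15 skeletal muscle genes (x axis, scaled CPM + 0.1, log axis), 1 point per sample, batch 1 (n = 74) in blue and batch 2 (n = 46) in orange. All 3 genes climb with the muscle list, and Cox7a1 is flat where the list is low.

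The other isoform pairs had a plain major form. Cox4i2, a lung-enriched form linked to low oxygen, ran from 0.082 to 7.07 scaled CPM (median 0.479) against 53.0 to 188 for Cox4i1. Its highest value was in the 18-week library of NOR mouse 5, and the next was 1.38. Cox6b2, a testis-enriched form, ran from 0 to 1.75 (median 0.843) against 15.4 to 88.8 for Cox6b1. Ndufa4l2, a low-oxygen response gene, was the exception: it ran from 3.51 to 118 (median 29.7) and was above Ndufa4 (3.03 to 25.8, median 15.3) in 96 of 120 samples on this scale. Per kilobase, the medians were 0.656 for Cox4i2 and 182 for Cox4i1, 1.52 for Cox6b2 and 101 for Cox6b1, and 31.8 for Ndufa4l2 and 28.8 for Ndufa4.

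Summed over members without the muscle isoforms and the annotated pseudogenes, the complexes spanned a wider range of levels at 6 weeks in batch 1 than in batch 2. In progressors at 6 weeks, the complex V sum had a median of 1417 scaled CPM in batch 1 (971 to 2320) and of 1221 in batch 2 (1148 to 1294). Complex III had medians of 357 (215 to 652) and 285 (277 to 306) in the same groups. The highest of these batch 1 sums belong to mouse 5, whose muscle list was also the highest of all samples. At onset, complex I ran from 703 to 787 in batch 1 and from 347 to 748 in batch 2, where the lowest library, that of mouse 9, is described further on.

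**Figure D2:**
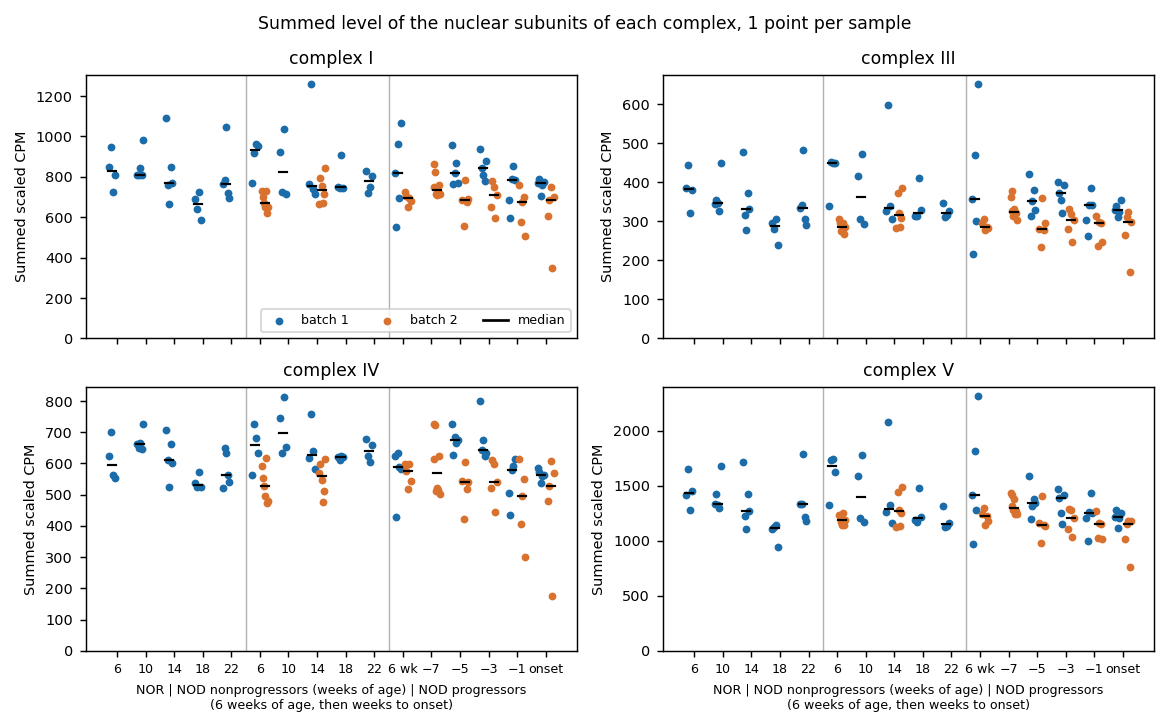
Summed scaled CPM of the members of complexes I, III, IV and V without the muscle isoforms and the annotated pseudogenes (y axes from 0), 1 point per sample, by strain, outcome and time (x axis), batch 1 in blue, batch 2 in orange, black lines at the medians of each group and batch, without the 6 samples labelled by days. The 6-week progressors of batch 1 span 971 to 2320 in complex V, and the lowest complex IV point at onset is 174.

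NOD and NOR mice of batch 1 differed in few members. With the biopsies summed to 1 library per mouse (9 NOD, 5 NOR), 1 member was higher and 2 were lower in NOD of 80 tested, that is 3 members beside 8.98% of all genes (3.87% higher, 5.11% lower). The NOR and nonprogressor sums cover ages of 6 to 22 weeks, while the progressor sums run from 6 weeks of age to onset. Strain is thus mixed with the times sampled and with disease state, and these cannot be told apart in the sums. The median change was 0.02 over the members and 0.00 over all genes. Ndufs5, an accessory subunit of complex I, was at 4.55, 4.93, 5.03, 5.03 and 5.22 scaled CPM in the NOR mice, at 6.09, 6.52, 6.54 and 6.65 in nonprogressors and at 5.19, 5.67, 6.22, 6.39 and 6.64 in progressors. Only the lowest NOD mouse overlapped with NOR. The change was 0.32 ± 0.06 (adjusted p = 0.00465), but −0.01 (adjusted p = 0.995) with the 6-week samples alone. A shift of reads between Ndufs5 and Ndufs5-ps was not tested. Ndufa6, another accessory subunit, ran from 22.1 to 24.2 in NOR and from 16.7 to 21.4 in NOD without overlap (−0.20 ± 0.05, adjusted p = 0.0258). This call was also lost with the 6-week samples alone.

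Cox4i2 was at 0.551, 0.655, 0.711, 0.798 and 0.938 scaled CPM in the NOR mice and between 0.288 and 0.722 in NOD (−0.59 ± 0.17, adjusted p = 0.0459). The groups overlapped, the call was lost without the 18-week library of NOR mouse 5 (−0.56, adjusted p = 0.0595), and the value was 0.01 with the 6-week samples alone. The members with the smallest p in complexes III and V were Uqcr10 (0.15, adjusted p = 0.26) and Atp5mpl (0.11, adjusted p = 0.302). Of the 13 subunits encoded in mitochondrial DNA, 5 were higher in NOD (median 0.34). The NOD side holds the 22-week nonprogressor libraries, with a median summed level of 42436 scaled CPM for these subunits. The NOR ages had medians of 12060 to 16611. The part of those libraries was not tested. None of complex II (4 genes) or the tricarboxylic acid (TCA) cycle (15 genes) passed.

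In NOR mice, no member changed between 6 weeks and the mean of 10 to 22 weeks (0 of 79 in edgeR and in DESeq2, 3 at unadjusted p under 0.05, beside 0.0357% of all genes). The median was −0.10 and 60 members were negative, while without mouse 2 the median was 0.01 and 44 were positive. The smallest p within complexes IV, I, V and III were those of Cox6b2 (−0.54), Ndufa10 (−0.23), Atp5b (−0.24) and Uqcrfs1 (−0.28). A test over the 5 ages found 2 members beside 8.24% of all genes, the core subunit Ndufs8 (adjusted p = 0.0167) and Cox8a (adjusted p = 0.0391). It kept the 18-week library of NOR mouse 5, with 85.7% of its counts on CT010467.1, and was not repeated without that library.

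In nonprogressors, the calls with age were mostly falls over both batches and rises within batch 2. Over both batches, 5 members fell and 1 rose between 6 weeks and later ages, of 79 tested, beside 24.1% of all genes (9.88% higher, 14.2% lower). With the mouse as a block 2 fell, Atp5o (−0.37, adjusted p = 0.0476) and Atp5pb (−0.24, adjusted p = 0.0423), and none passed without mouse 2 or without the 22-week samples. Those 4 libraries had 12.8% to 30.5% of their counts on Rn7s2 and TMM factors of 0.505 to 0.837. In the 6-week libraries of the same batch the most abundant gene took 2.08% to 4.43% and the factors were 1.06 to 1.08. The part of this in the changes was not tested. Atp5o, the stalk subunit that links the ATP synthase head to its membrane part, was at 50.9, 60.7, 63.7 and 67.4 scaled CPM at 6 weeks in batch 1 and between 31.4 and 70.9 later (median 39.9, n = 16). In batch 2 it ran from 49.2 to 62.9 at 6 weeks and from 40.3 to 63.6 at 14 weeks. The later values of batch 1 reached lower in all 4 mice, with overlap, and the change over both batches was −0.36 ± 0.12 (adjusted p = 0.0226).

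Uqcrc2, a core protein of complex III, was at 46.2, 57.0, 64.6 and 67.4 scaled CPM at 6 weeks in batch 1 and ran from 25.0 to 70.5 later (median 37.2), with a lower mean in 4 of 4 mice. In batch 2 it ran from 56.1 to 67.1 at 6 weeks and from 54.7 to 78.8 at 14 weeks (median 71.3). The changes were −0.56 ± 0.17 (adjusted p = 0.0372) in batch 1, where it was the only member called, beside 13.8% of all genes (7.15% higher, 6.61% lower), and 0.16 (adjusted p = 0.152) in batch 2. Pooled, it was −0.37 ± 0.12 (adjusted p = 0.0244), and 0.0533 was the adjusted p with the block. Pooled falls of Ndufa9 (−0.28 ± 0.09, adjusted p = 0.0268), Ndufc1 (−0.36 ± 0.13, adjusted p = 0.0387) and the γ subunit Atp5c1 (−0.22 ± 0.08, adjusted p = 0.0364) were also lost with the block, at adjusted p = 0.0513, 0.0604 and 0.0677. Batch 2 values of these 3 genes were 0.01, 0.01 and 0.03.

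Ndufa6 was the member that rose (0.21 ± 0.08, adjusted p = 0.0447, and 0.138 with the block). It was at 16.4, 17.7, 19.0 and 20.5 scaled CPM at 6 weeks in batch 1 and between 16.8 and 26.0 later, and in batch 2 it went from between 8.37 and 11.6 to between 11.5 and 15.9, up in 6 of 6 mice. No complex IV member passed, Cox7b having the smallest p (−0.24, adjusted p = 0.148). A test over the ages found 7 of 79 members beside 34.7% of all genes. The skeletal muscle list had a median of −1.84 in batch 1 with none of 15 called, and with that list as a covariate no member passed in batch 1.

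In batch 2, 13 of 79 members rose from 6 to 14 weeks and none fell, beside 34.1% of all genes (16.8% higher, 17.3% lower). Cox6a2 ran from 0.0999 to 0.527 scaled CPM in the 7 mice at 6 weeks, and was at 0.256, 3.32, 4.09, 5.13, 4.25 and 9.28 in mice 5 to 10 at 14 weeks (3.75 ± 0.58, adjusted p = 0.000515). Cox8b ran from 0 to 0.82 (3 mice at 0) and then from 0.0256 to 9.14 (4.62 ± 0.96, adjusted p = 0.00267), and Cox7a1 from 0.95 to 1.93 and then from 2.13 to 6.37 (1.32 ± 0.26, adjusted p = 0.00208). Only Cox7a1 did not overlap. Mouse 5, whose Cox6a2 stayed at 0.256, had a muscle list sum of 15.2 at 14 weeks, while the other 5 mice had 3049 to 8903.

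Among the core subunits, Ndufs7 ran from 18.1 to 21.8 scaled CPM at 6 weeks and from 22.5 to 33.3 at 14 weeks of batch 2, without overlap (0.42 ± 0.09, adjusted p = 0.00316). Uqcrfs1 ran from 29.9 to 34.2 and then from 33.7 to 46.0 (0.28, adjusted p = 0.015). Uqcr11 rose by 0.42 (adjusted p = 0.0153), Ndufa4 by 0.40 (adjusted p = 0.0163) and Cox4i1 by 0.22 (adjusted p = 0.0248). The others called were Ndufb10, Uqcrq, Ndufs1, Ndufa6 and Ndufv1, at 0.23 to 0.39, and complex V had none. All 15 skeletal muscle genes (median 4.47) and all 9 white adipocyte genes (median 5.91) rose in the same comparison, and 7 of 15 TCA cycle genes rose. With the muscle list as a covariate, 0 members and 1594 genes passed.

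The age change of nonprogressors minus that of NOR mice passed for 0 of 79 members and 0 of 20647 genes (0.0%), with 0 members at unadjusted p under 0.05 and 0 in DESeq2. Between batches, the nonprogressor change from 6 to 14 weeks differed for 0 of 79 members in edgeR, beside 3.15% of all genes, with 1 member, Ndufa4l2 (−1.59), in DESeq2. For Uqcrc2 the difference in edgeR, batch 2 minus batch 1, was 0.57 (adjusted p = 0.142). It compares 14 with 6 weeks only, while the fall of Uqcrc2 given for batch 1 covers all later ages of that batch. Whether that fall differs from the batch 2 value was not tested.

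**Figure D3:**
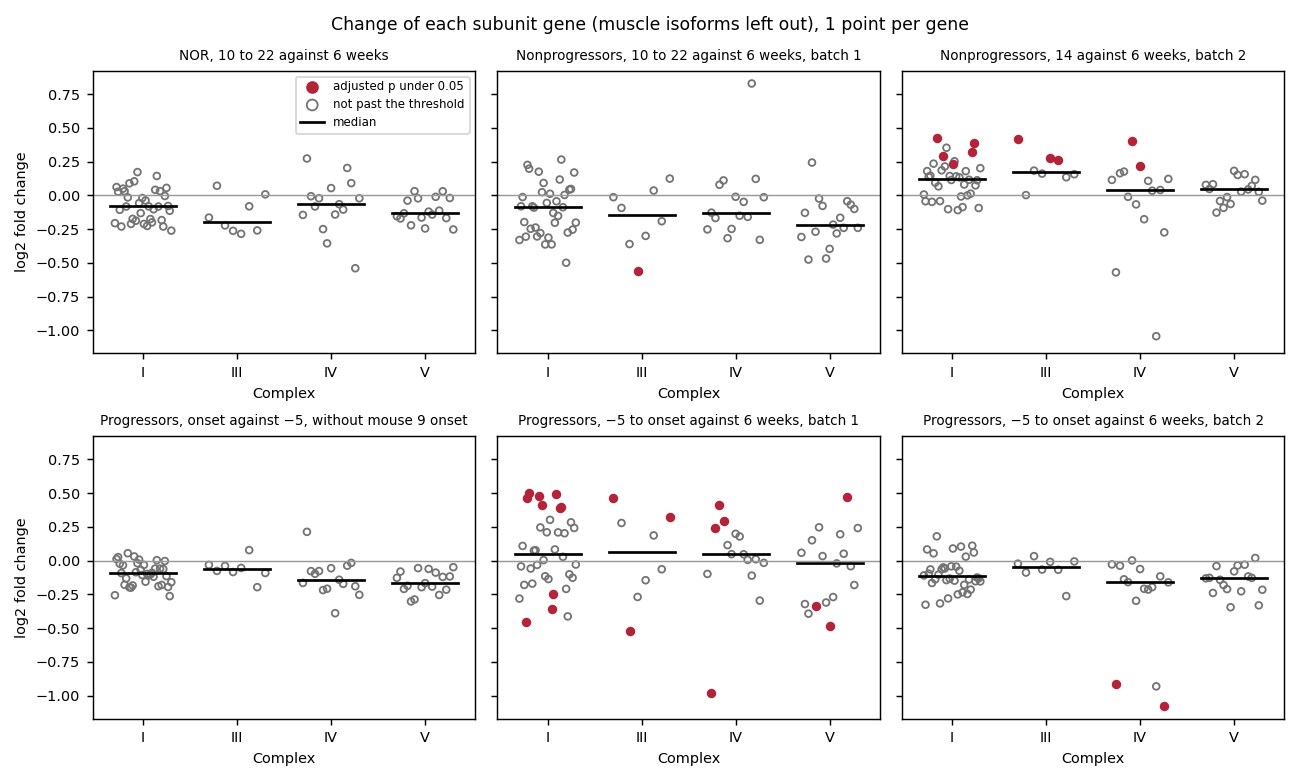
Change of each member without the muscle isoforms (y axis, log2 fold change) by complex (x axis) in 6 comparisons within batch or cohort. Filled red points passed the adjusted p threshold, open points did not, and black lines are medians. In batch 1 progressors 13 red points lie above 0 and 7 below, in batch 2 progressors 2 lie below 0.

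At 6 weeks of age, progressors and nonprogressors did not differ in any member at the threshold (0 of 79, beside 0.0% of 20090 genes, in edgeR and in DESeq2). At unadjusted p under 0.05 there were 5 members over both batches. Uqcrb (−0.27), Atp5l (−0.22), Cox7a2 (−0.22) and Ndufb5 (−0.16) had the smallest p of their complexes (adjusted p = 0.909). The median was −0.25 in batch 1 and 0.02 in batch 2.

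In progressors, between 6 weeks of age and the mean of −5, −3, −1 weeks and onset, 13 of 79 members fell and 1 rose, beside 39.5% of all genes (19.9% lower, 19.6% higher). Falls by complex were 4 of 36 in complex I, 1 of 8 in complex III, 2 of 15 in complex IV and 6 of 17 in complex V. The median member changed by −0.05. Leaving out a mouse gave 6 (without mouse 5) to 17 calls, with 8 without mouse 3 and 9 without mouse 6. Mice 3 and 5 are those of batch 1 with the most muscle RNA at 6 weeks, with muscle list sums of 11792 and 37243 against 12.3 to 1424 in mice 1, 2 and 4.

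Cox4i2 fell in both batches. It was at 0.34, 0.593, 0.788, 0.951 and 1.08 scaled CPM at 6 weeks in batch 1 and between 0.144 and 0.726 later (median 0.343), lower in 5 of 5 mice. Batch 2 had 0.465, 0.729, 0.771, 0.795 and 0.944 and then between 0.082 and 0.757 (median 0.401), lower in 4 of 5 mice. The changes were −0.98 ± 0.28 (adjusted p = 0.0134) and −0.92 ± 0.34 (adjusted p = 0.038) in the batches and −0.94 ± 0.22 (adjusted p = 0.000525) pooled. Of the pericyte list, 5 of 8 genes fell over the same times (median −0.66), and all 7 fibroblast genes fell (median −1.25). Their part in the change of Cox4i2 was not tested. The low level of the gene limits its precision.

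Cox6b2 was called in batch 2 only, at 0.841, 1.10, 1.18, 1.22 and 1.37 scaled CPM at 6 weeks and between 0 and 1.02 later (median 0.566, −1.07 ± 0.30, adjusted p = 0.00783), with a lower mean in 5 of 5 mice. In batch 1 it ran from 0.723 to 1.65 and then from 0.258 to 1.34 (−0.30, adjusted p = 0.475), also lower in 5 of 5 mice. Pooled, the change was −0.71 ± 0.22 (adjusted p = 0.00849). The difference between the batches was −0.77 (adjusted p = 0.346). Cox4i2 and Cox6b2 were the members called in batch 2, beside 31.2% of all genes (14.8% higher, 16.4% lower). Without the onset library of mouse 9, batch 2 had 5 lower and 1 higher: Cox6b2, Cox4i2, Atp5o, Atp5c1 and Ndufs4 fell and Cox6a2 rose (1.92, adjusted p = 0.0489).

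Of the 6 complex V members that fell, Atp5b had the smallest p. In batch 1 it was at 325, 451, 516, 703 and 1005 scaled CPM at 6 weeks and between 318 and 584 later (median 412), lower in 4 of 5 mice. The batch 2 values were 363, 380, 387, 403 and 464 and then between 316 and 467 (median 376). The batches gave −0.49 ± 0.15 (adjusted p = 0.0245) and −0.08 (adjusted p = 0.406), and the pooled value was −0.29 ± 0.08 (adjusted p = 0.00408). The 1005 is mouse 5 and the 703 mouse 3. Without mouse 5 the pooled fall was −0.16 (adjusted p = 0.077), and with the muscle list as a covariate it was −0.31 (adjusted p = 0.00055).

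Ndufa10, an accessory subunit of complex I, was at 34.4, 42.4, 47.8, 56.7 and 70.7 scaled CPM at 6 weeks in batch 1, and later it ran from 33.3 to 49.6 (−0.36 ± 0.10, adjusted p = 0.0111), while batch 2 gave −0.04 (adjusted p = 0.744). Pooled, it changed by −0.21 ± 0.07 (adjusted p = 0.0126), and by −0.13 (adjusted p = 0.125) without mouse 5. Uqcrc1 was at 94.1, 134, 151, 220 and 381 in batch 1 and then between 110 and 173 (−0.52 ± 0.18, adjusted p = 0.0344), and in batch 2 it gave 0.03 (adjusted p = 0.799). Its pooled change of −0.26 ± 0.10 (adjusted p = 0.0332) had an adjusted p of 0.0624 with the mouse block and of 0.58 without mouse 5, where the value was −0.06.

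Other pooled falls were Atp5o (−0.33 ± 0.10, adjusted p = 0.00733), the c subunit genes Atp5g3 (−0.24), Atp5g2 (−0.26) and Atp5g1 (−0.32, adjusted p = 0.0498, and 0.0514 with the block), Ndufa9 (−0.20), Ndufa8 (−0.25) and Atp5a1 (−0.16, adjusted p = 0.0401, and 0.0526 with the block). Atp5o was alike in both batches, −0.31 in batch 1 (adjusted p = 0.071) and −0.34 in batch 2 (adjusted p = 0.093). In batch 1 it went from 33.5, 42.9, 51.8, 63.5 and 68.1 scaled CPM to between 28.5 and 56.2, and in batch 2 from between 48.5 and 63.8 to between 14.5 and 60.6. The 14.5 is the onset library of mouse 9. The mean was lower in 4 of 5 mice in each batch.

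**Figure D4:**
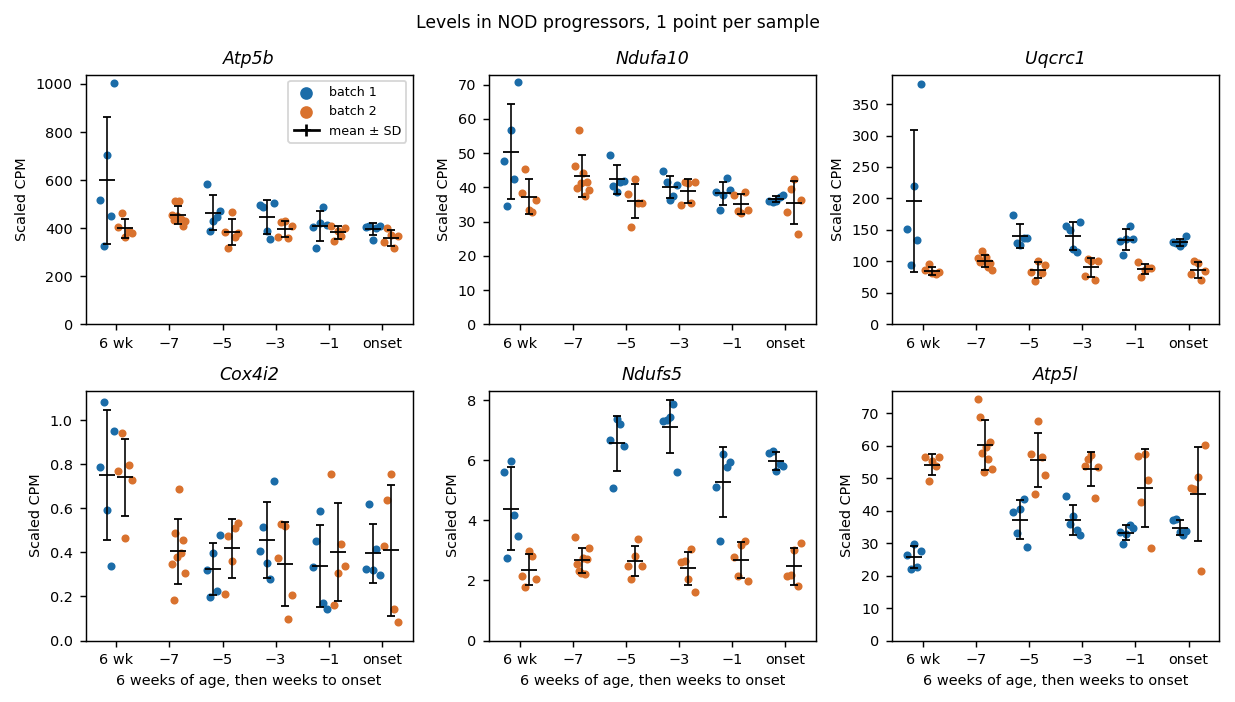
Scaled CPM (y axes from 0) of Atp5b, Ndufa10, Uqcrc1, Cox4i2, Ndufs5 and Atp5l in the 58 progressor samples by time (x axis, 6 weeks of age, then weeks to onset), 1 point per sample, batch 1 in blue and batch 2 in orange, with the mean ± SD of each batch and time. The 6-week spread of Atp5b, Ndufa10 and Uqcrc1 is wide in batch 1, and at 6 weeks the mean of Ndufs5 is higher and that of Atp5l lower in batch 1 than in batch 2.

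Within batch 1 of the progressors, 13 members rose and 7 fell, beside 27.1% of all genes (13.7% higher, 13.4% lower). Atp5l, the g subunit of ATP synthase, was at 22.0, 22.6, 26.4, 27.6 and 29.8 scaled CPM at 6 weeks and between 28.8 and 44.4 later, higher in 5 of 5 mice (0.47 ± 0.09, adjusted p = 0.000821). Batch 2 had 48.9, 53.7, 55.3, 56.3 and 56.5 and then between 21.4 and 67.6, lower in 4 of 5 mice (−0.13, adjusted p = 0.515). Cox7a2l, which helps to join complexes III and IV, went from between 32.4 and 38.0 to between 35.5 and 53.9 in batch 1 (0.29 ± 0.07, adjusted p = 0.00505) and from between 40.7 and 53.7 to between 27.5 and 50.3 in batch 2 (−0.16, adjusted p = 0.13). The 21.4 of Atp5l and the 27.5 of Cox7a2l are both of the onset library of mouse 9, described further on.

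Atp5l and Cox7a2l are the 2 of 80 members whose change differed between the batches, beside 4.66% of all genes. The difference, batch 2 minus batch 1, was −0.45 ± 0.11 for Cox7a2l (adjusted p = 0.0203) and −0.59 ± 0.18 for Atp5l (adjusted p = 0.0455). It was past the threshold for Cox7a2l without a filter on low counts and with the muscle list as a covariate too, but not for Atp5l (adjusted p = 0.0779 and 0.0652). In DESeq2 Cox8b (4.04) and Cox6a2 (3.23) passed as well, with the muscle list at a median change of −2.03 in batch 1 and 2.29 in batch 2.

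Ndufs5 rose in batch 1 from 2.76, 3.49, 4.17, 5.6 and 5.96 scaled CPM to between 3.31 and 7.89 (0.50 ± 0.15, adjusted p = 0.0172), in 5 of 5 mice. In batch 2 it went from between 1.79 and 2.97 to between 1.63 and 3.39 (0.10, adjusted p = 0.639), and pooled the change was 0.29 ± 0.11 (adjusted p = 0.033). Also higher in batch 1 were Ndufa6 (0.48 ± 0.12, adjusted p = 0.00698), Cox6c (0.24, adjusted p = 0.00814), Cox7c (0.41 ± 0.11, adjusted p = 0.00835), the hinge protein Uqcrh (0.32) and Uqcr11 (0.47, adjusted p = 0.0498), with Ndufb7, Ndufa2, Ndufb11, Ndufa1 and Ndufa5 at 0.39 to 0.50. The falls included Ndufa10, Ndufa8 (−0.25), Cox4i2, Atp5g3 (−0.33), Atp5b and Uqcrc1. With the muscle list as a covariate 17 rose and 12 fell.

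In batch 1 the change was lower in longer transcripts on average. Over 76 members without the muscle isoforms (median length 748.5 bases), the change and the length had rho −0.49 as a description across genes, which share the libraries. The 38 shorter members had a median of 0.17 with 27 positive, and the 38 longer ones −0.11 with 15 positive. Over all genes rho was −0.15, and genes of the same shorter and longer classes had medians of 0.20 and 0.00. In batch 2 progressors rho was 0.07. Nonprogressors gave −0.44 in batch 1 and 0.13 in batch 2. Of the cytosolic ribosomal protein genes, which are short too, 31 rose and 1 fell of 77 in progressors of batch 1 (median 0.26), and 0 rose and 19 fell of 78 in batch 2 (median −0.41). The part of length in the changes was not tested.

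**Figure D5:**
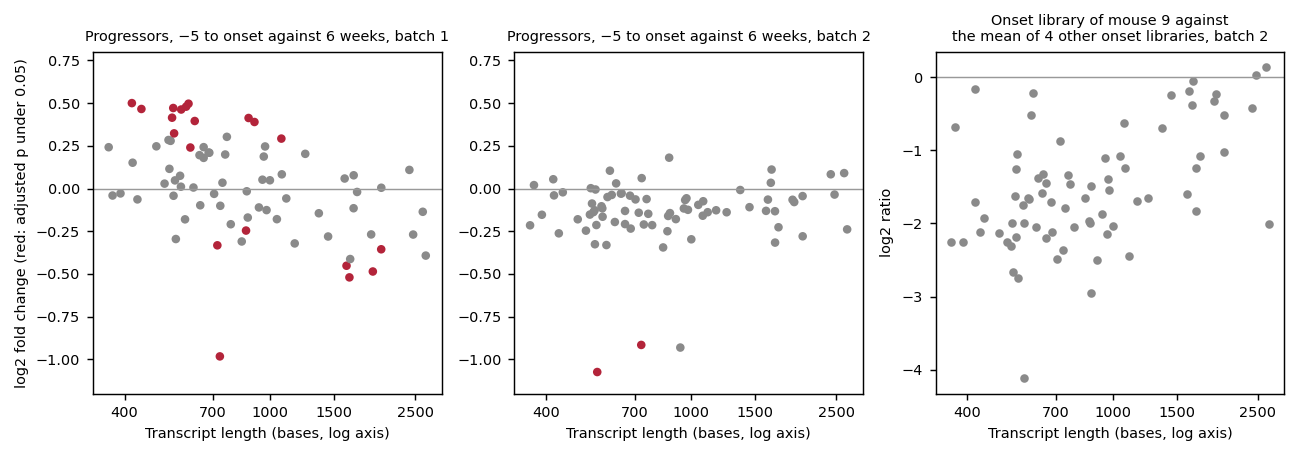
Change of each member without the muscle isoforms (y axis, log2) against transcript length (x axis, bases, log axis), in progressors of batch 1 and of batch 2 (later times against 6 weeks, red where the adjusted p passed) and in the onset library of mouse 9 against the mean of the 4 other onset libraries of batch 2. In batch 1 the falls of Atp5b, Uqcrc1 and Ndufa10 lie at the long end and those of Atp5g3 (718.5 bases) and Cox4i2 (730 bases) below the median length, while among the rises Cox7a2l (1076 bases), Ndufb11 (908 bases) and Ndufa5 (875 bases) lie above it.

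Within the time course, −5 against −7 weeks gave 0 of 79 members in edgeR and in DESeq2, beside 0.0% of all genes in edgeR, with 4 members at unadjusted p under 0.05 in edgeR. Ndufa10 (−0.23), Atp5a1 (−0.21), Ndufa4 (−0.37) and Uqcrc2 (−0.20) had the smallest p within complexes I, V, IV and III, and the last pair were not among the 4. Within batch 2, which holds all −7 samples, 73 of 79 values were negative (median −0.15).

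Onset against −5 weeks gave 1 lower member, Atp5g3, of 79, beside 1.77% of all genes (0.827% higher, 0.945% lower). In batch 1 it was at 34.5, 37.4, 40.4, 40.8 and 43.7 scaled CPM at −5 and at 28.3, 30.8, 32.6, 34.2 and 34.4 at onset, without overlap. The batch 2 values were 36.9, 38.4, 40.2, 51.3 and 64.2 and then at 20.9, 33.4, 33.9, 42.4 and 43.8, with overlap. The change was −0.37 ± 0.10 (adjusted p = 0.0441), 0.0505 was the adjusted p with the block, and without the onset library of mouse 9, the 20.9, it was −0.30 (adjusted p = 0.103). Of the 79 values, 76 were negative (median −0.19), and without that library 69 were (median −0.10). Within batch 2 the median without it was −0.04 with 36 positive, and within batch 1 it was −0.17 with 8 positive. No member passed within batch 1, beside 0.0051% of all genes, or within batch 2, beside 9.23%. The smallest p in complexes I, III and IV were those of Ndufa9 (−0.28, adjusted p = 0.086), Uqcr10 (−0.31, adjusted p = 0.308) and Cox7a2 (−0.51, adjusted p = 0.086). Without mouse 10, 4 members passed (Atp5g3, Atp5c1, Cox7a2 and Ndufb6).

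That library stood apart in most members. In the onset library of progressor mouse 9, 71 of 76 members compared were below the other 4 onset libraries of batch 2, beside 25.1% of 15814 genes, with a median log2 ratio of −1.65 against −0.01 over all genes. Cox6a1 was at 1.84 scaled CPM against 24.1 to 40.7 in the others, a log2 ratio of −4.12 to their mean. Cox8a was at 9.09 against 49.4 to 71.7, and Cox4i1 at 53.0 against 125 to 148. Some members with long transcripts stood nearer to the others. Atp5b was at 316 against 342 to 400, Atp5a1 at 264 against 241 to 272, and Ndufs1 at 72.8 was above the others (61.7 to 72.0). Not all did, as the longest, Atp5g1 (2675.5 bases), had a log2 ratio of −2.01. The short Cox6c (606 bases) was at −0.21. Ratio and length had rho 0.45 over 74 members and 0.38 over all genes. The 37 members shorter than 759 bases had a median of −1.79, and all genes of that class had −1.81. In the longer class the medians were −1.39 for the members and 0.00 for all genes.

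Most members differed between the batches. In nonprogressors at 6 and 14 weeks, 42 of 79 members were lower and 14 higher in batch 2, beside 48.6% of all genes (24.3% higher, 24.3% lower), with a median of −0.30. Ndufs5 at 6 weeks was at 6.14, 6.30, 6.60 and 6.93 scaled CPM in batch 1 and between 1.91 and 3.28 in batch 2 (−1.43 ± 0.10). Cox6a1 ran from 54.5 to 67.4 and from 19.8 to 31.4 (−1.34), and Cox7b from 19.1 to 25.5 and from 30.8 to 43.5 (0.70). None of these 3 overlapped at 6 weeks. Also lower in batch 2 were Cox6c (−1.25), Atp5k (−1.2), Ndufa13 (−1.11), Uqcrc1 (−0.88), Atp5j2 (−0.81) and Uqcrh (−0.48), and higher were Ndufa7 (0.53), Atp5l (0.53), Atp5mpl (0.41), Ndufc2 (0.37), Uqcrc2 (0.34) and Cox5a (0.33). Complex I took 25 of the falls. Of the 13 mitochondrially encoded subunits, 12 were lower in batch 2 (median −1.56). Here rho with length was 0.01.

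Other mitochondrial gene groups in progressors, later against 6 weeks, were as follows. The mitochondrially encoded subunits rose in 8 of 13 (median 0.51), although within a batch 0 (batch 1, median 0.61) and 1 (batch 2, median 0.36) passed. In nonprogressors 10 of 13 rose (median 0.64). Of the TCA cycle genes 9 of 15 fell (median −0.23), 9 in batch 1 and 2 in batch 2, and of the 4 complex II genes 2 fell. Of 78 mitochondrial ribosomal protein genes 7 fell and 2 rose, of 45 assembly factors 6 fell and 4 rose, and of 13 regulators of mitochondrial biogenesis 1 fell. Over both batches, the nuclear subunits and the mitochondrially encoded ones had medians of opposite sign, −0.05 and 0.51. In batch 2 the shorter and the longer nuclear members without the muscle isoforms both had medians of −0.13, against 0.36. In batch 1 the shorter ones were at 0.17, the same sign as 0.61, and the longer ones at −0.11.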

How the data were processed

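RNA of homogenised scaffold biopsies was depleted of ribosomal RNA and sequenced in 2 batches. The authors deposited expected counts per gene, which are estimates of reads per gene, as a table for each batch. The submitters' processing notes name cutadapt, FastQC, STAR, RSEM and MultiQC and the build GRCm38, without versions. Expected counts were rounded to whole numbers, and 55487 shared genes were used. Coordinates and transcript lengths came from the GENCODE annotation of GRCm38, and the length used was the median of the principal transcripts.

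Genes passing filterByExpr were scaled by TMM and tested in R 4.3.3 by the quasi-likelihood method of edgeR 4.0.16. All genes entered each fit, the threshold was a Benjamini-Hochberg p of 0.05, and a batch term was added for groups of both batches. DESeq2 1.42.0, other filters and scalings, fits within a batch, single mice left out and a skeletal muscle covariate were alternatives, some of them chosen after seeing the data. The test was tried on simulated data and recovered 77% of genes changed by 1 on the log2 scale and 51% of those changed by 0.5 for progressors, later against 6 weeks (21279 genes).

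The mouse numbers in the labels pair samples of the same animal, and the mouse block was the paired alternative. Around their group means, the deviations of biopsies of 1 mouse had a mean r of −0.0206 in NOR, 0.00505 in nonprogressors and −0.0225 in progressors over 2000 genes. Pairs of different mice had 0.0063, −0.00226 and 0.00527 in the same order, so all were near 0. Biopsies of a mouse are repeated samples, so without the block the p-values measure the spread between samples. All 239 replicate pairs differed beyond sampling noise, the smallest chi-square being 34.3 per degree of freedom. Permutation tests used 100000 resamples in scipy 1.17.1 with Python 3.11.15, two-sided, and figures used matplotlib 3.10.9.

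Members and lists were chosen with earlier results of these data known. Named were, in each comparison and complex, the 2 called members with the smallest p in each direction or else the one with the smallest p, the isoform pairs and the catalytic core. Other members named were chosen after their values were seen. The results of 1 member are not reported here, although it stays in the counts.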

Additional observations from a re-analysis of the deposited data

Results flagged for a closer look

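Of 115 sets of summed levels by complex, group and batch, 15 held a library whose gap to the nearest other one was large for its group by Dixon's test. Chance gives about 1 in 20. Complex I stood out in the 10-week library of NOR mouse 5 (980 scaled CPM against 807 to 845 in the others) and the 22-week library of NOR mouse 3 (1045 against 697 to 782). It also did in the 14-week library of nonprogressor mouse 2 of batch 1 (1261 against 714 to 767) and the 18-week library of nonprogressor mouse 3 (910 against 742 to 749), and low at 347 against 605 to 748 in the onset library of progressor mouse 9. Complex III did in the 10-week library of NOR mouse 5 (449), the 14-week library of nonprogressor mouse 2 (597) and, low, the 6-week library of nonprogressor mouse 1 of batch 1 (339 against 449 to 452).

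Complex IV was high in the 10-week library of NOR mouse 5 (727), and low in the 6-week library of progressor mouse 2 of batch 1 (430 against 583 to 633) and in the onset library of progressor mouse 9 (174 against 481 to 609). Complex V was low in the 18-week library of NOR mouse 5 (942 against 1108 to 1141) and high in the 18-week library of nonprogressor mouse 3 (1479 against 1172 to 1213), which had the fewest counts of all libraries. The 3 muscle isoforms together were high in nonprogressor mouse 3 at 10 weeks (14.4 against 1.78 to 2.04) and in nonprogressor mouse 2 at 14 weeks of batch 1 (104 against 1.56 to 3.19). These 14-week complex sums and muscle isoforms were high in the same library.

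The change of progressors from 6 weeks to later times differed between the batches, by a test of the interaction, for Cox7a2l (−0.45, batch 2 minus batch 1, edgeR adjusted p = 0.0203) and Atp5l (−0.59, edgeR adjusted p = 0.0455).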

How the results depend on the processing

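The members called between NOD and NOR numbered 3, and they numbered 1 without a filter on low counts, 0 with 6-week samples alone, where Cox4i2 was at 0.0131 and Ndufs5 at −0.00585, 5 with the progressors left out and 1 to 4 with a mouse left out (1 without NOR mouse 1, 3 or 4 or nonprogressor mouse 4). For nonprogressor age, 6 members became 3 without a filter, 2 with the mouse as a block, 1 within batch 1, 13 within batch 2, 23 without the batch term and 10 with the muscle list as a covariate. With that covariate within batch 1 or batch 2, without the 22-week samples and from 6 to 14 weeks within batch 1 there were 0, and with a mouse left out there were 0 to 8 (2 without mouse 1, 0 without mouse 2, 3 without mouse 4). The direction turned within batch 2 for Atp5c1 (0.0279), Ndufa9 (0.00667), Ndufc1 (0.0131), Uqcrc2 (0.16), Cox6a2 (3.75), Cox7a1 (1.32) and Cox8b (4.62). For progressors, later against 6 weeks, 14 members became 2 within batch 2, 7 without the batch term, 29 and 2 with the muscle covariate within batch 1 and batch 2, 6 within batch 2 without the onset library of mouse 9, and 6 to 17 with a mouse left out. Within batch 2, Uqcrc1 turned to 0.0338, to 0.00977 with the covariate and to 0.0466 without that library, where Cox6a2 was at 1.92. The 1 member of onset against −5 weeks became 0 with RLE scaling, without a filter, with the block, without the batch term, within batch 1 or batch 2 (also with the covariate), without the onset library of mouse 9 (also within batch 2) and without any of mice 1 and 3 to 9, and 4 without mouse 10. The 56 members that differed between batches were 34 with 14-week samples alone and 49 to 57 with a mouse left out. The batch difference in change gave 1 member in nonprogressors by DESeq2 (0 by edgeR), and in progressors 4 by DESeq2, 1 without a filter and 1 with the covariate (2 otherwise). The r of Cox7a1 with the muscle list in batch 2 was 0.41 without the 2 farthest mice. Leaving out a mouse gave 0 to 0 members for NOR age, for the difference in age change and for −5 against −7 weeks. The block changed no call of a member other than those given in the report, and the cause of these shifts was not tested. Counts of 0 members rest on 4 or 5 mice per strain and outcome in batch 1, and members under 1 scaled CPM, such as Cox4i2 and Cox6b2, rest on few reads.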

Other observations

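The 6 nonprogressor samples whose labels give days since implantation and no age, 2 each at 31, 38 and 108 days, had complex V sums of 1313 and 1370 scaled CPM at 31 days, 1626 and 1700 at 38 days and 1280 and 1354 at 108 days. Complex I was at 791 and 807, at 938 and 959 and at 784 and 803 in the same order. The 3 muscle isoforms together were at 1.12 and 1.48 at 31 days, at 13.1 and 25.7 at 38 days and at 1.54 and 2.13 at 108 days. Their labels name mouse 1 and mouse 2 but give no age, and they were not tested.

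The subunits encoded in mitochondrial DNA were highest in the 22-week nonprogressors, with a summed level between 27892 and 121180 scaled CPM in 4 mice (median 42436), while 6-week nonprogressors of the same batch ran from 12607 to 15150.3. The nuclear complex V sums of these 22-week samples ran from 1126 to 1314, against 1325 to 1740 at 6 weeks, without overlap. These 4 libraries stood apart, with 12.8% to 30.5% of counts on Rn7s2 and TMM factors of 0.505 to 0.837, against 2.08% to 4.43% on the most abundant gene and factors of 1.06 to 1.08 at 6 weeks. The part of this in both differences was not tested.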
